A study of Mus musculus with 30 samples.

Results

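The cytosolic ribosomal protein genes encode the protein part of the ribosome that translates nuclear messenger RNAs. Members were taken by symbol: protein-coding mouse genes named Rpl or Rps followed by a digit, Rpsa, and Rplp0, Rplp1 and Rplp2, leaving out symbols with -ps, the Rps6k kinases and Rps19bp1. Of 38031 genes in the table, 85 met this rule, 33 of the small subunit and 52 of the large subunit. Of these, 83 passed the filter on low counts and were tested among 14346 genes. The exceptions were Rpl3l, with 34 counts over all 30 libraries, and Rpl10l, with 1 count. Another 6 symbols of this form were annotated as pseudogenes and were not members.

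RNA of primary microglia, which are brain macrophages, was sequenced; the C57BL/6 mice were at postnatal day 21. Lrrk2-/- microglia (knockout, KO) with α-synuclein fibrils gave 5 libraries, KO microglia with lipopolysaccharide (LPS, a bacterial wall component sensed by Toll-like receptor 4) gave 4, and KO control microglia gave 6. Wild-type (WT) microglia with fibrils gave 4 libraries, WT microglia with LPS 6, and WT control microglia 5. Lrrk2 encodes a large kinase linked to Parkinson's disease, and neither dose nor exposure time nor sex is stated in the sources used here. Ribosomal RNA was removed and the remaining RNA was sequenced with its strand kept. Counts of these genes come from that RNA and include transcripts not annotated as protein coding. Lrrk2 itself lay between 0.732 and 4.68 CPM (counts of a gene scaled to a common library size) in the KO libraries, against 6.87 to 16.7 CPM in the WT libraries. All 12 microglial markers had counts in every library. KO control replicates 1, 4 and 6, KO fibril replicate 5, WT control replicate 6 and WT LPS replicates 1 and 6 stood apart in RNA composition, total count or markers of other cells, and results that change without these 7 libraries are given both ways. These 7 do not include every library with high markers of other cells. KO control replicate 3 had the highest summed oligodendrocyte markers (820 CPM) and KO fibril replicate 1 the highest summed astrocyte markers (302 CPM). Both stayed in that fit. The labels do not say that replicates were separate cultures or animals, so each p-value is set against sample spread that may be technical.

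Across treatments and genotypes few ribosomal protein genes were called. Most genes of a list of ribosome assembly factors rose with fibrils in KO microglia (46 of 56, and 26 in a fit of only the compared groups). In WT microglia 28 of 56 rose (5 with scaling by library size alone). Of all genes 12.2% were higher in KO and 13.9% in WT microglia. In the fit of all 30 libraries no comparison of treatments or genotypes called more than 8 of the 83 tested members. Other settings called up to 23, reached for fibrils against control in WT microglia with scaling by library size alone. That scaling also lowered the median of all genes. Rpl7l1, a paralog of Rpl7, was higher with fibrils than in controls and than with LPS in both genotypes. Rps2 was higher with LPS than in controls in KO microglia. Averaged over the treatments, 8 members (9.64%) were lower in KO than in WT microglia, where 11.1% of all genes were called and 4.15% were lower. The calls of Rpl28, Rpl35 and Rps16 held whichever library was left out. Several markers of oligodendrocytes, neurons, astrocytes and fibroblasts were higher in KO microglia in that mean comparison, and their part was not tested. Rps16 had a low level for a core ribosomal protein and the widest spread of the 83 members in WT controls.

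Mature cytosolic ribosomes hold a small subunit, which decodes messenger RNA, and a large subunit, which forms peptide bonds. Their proteins are needed in near equal amounts, and many of their messenger RNAs begin with a run of pyrimidines, the 5′ terminal oligopyrimidine (TOP) tract, through which the mTOR kinase pathway and the protein Larp1 control their translation. Several members have roles outside the ribosome: in mouse and human cells Rpl11 binds Mdm2 when ribosome assembly is disturbed, and human RPL13A was described in monocytes as a silencer of inflammatory messenger RNAs. The human protein RPS15 was reported as a substrate of LRRK2.

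Some of these genes share short strings around the start of transcription. RefSeq promoter entries on build GRCm38.p6 were found for 65 of the 85 members, with 77 promoters in all. The pyrimidine string CTTTCC on the gene strand, within 50 bases of the annotated start on either side, occurred in 24 of the 77 member promoters (31.2%), in 21 of the 65 members, against 4.69% of all 32851 promoters. The same string on the other strand, GGAAAG, occurred in 2.60% of member promoters and in 4.47% of all promoters. The string CCGGAAG, the core bound by ETS factors, was present on either strand from 250 bases before to 50 after the start in 35.1% of member promoters and in 8.86% of all promoters. The TATA box string TATAAA, from 50 bases before to 10 after the start on the gene strand, occurred in 2.60% and 2.82%. The windows of 30 bases around the RefSeq start, which is base 16, are shown for the members on which the results turn, read 5′ to 3′ on the gene strand with CTTTCC in capitals. They are Rpl28 (chr7:4792950-4792979, plus strand), Rpl35 (chr2:39005117-39005146, minus strand), Rpl13a (chr7:45128731-45128760, minus strand), Rps2 (chr17:24720048-24720077, plus strand), Rpl7l1 (chr17:46782642-46782671, minus strand), and Rps16 (chr7:28350674-28350703, plus strand).
Rpl28: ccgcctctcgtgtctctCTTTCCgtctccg
Rpl35: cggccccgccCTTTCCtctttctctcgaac
Rpl13a: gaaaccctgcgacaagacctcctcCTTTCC
Rps2: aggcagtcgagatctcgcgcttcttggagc
Rpl7l1: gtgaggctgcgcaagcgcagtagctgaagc
Rps16: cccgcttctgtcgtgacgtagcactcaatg
Rpl28, Rpl35 and Rpl13a hold the string in these windows, while Rps2, Rpl7l1 and Rps16 do not hold these letters there. A match is a description of the sequence and not a mapped start of the transcript in microglia.

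The levels of the members were compared with each other per length, as the CPM of each transcript divided by its annotated length in kilobases (kb) and summed per gene. In WT control microglia the median of the 83 tested members was 569 CPM per kb, with 632 for the small subunit and 512 for the large subunit. The 10th and 90th percentiles of the tested members were 287 and 1063 CPM per kb, with 65 members between them. Rplp1, an acidic stalk protein that recruits elongation factors, was highest at 2186 ± 167 CPM per kb (SD, n = 5). Rps29 followed at 1871 ± 91.4, then Rpl41 at 1550 ± 184, Rps12 at 1448 ± 101 and Rpl10 at 1386 ± 177 CPM per kb (SD, n = 5 each). Each of these 5 overlapped its neighbour in the order, as Rplp1 reached down to 1936 CPM per kb in its lowest library and Rps29 up to 1942 in its highest.

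The lower end of the order held paralogs and 1 core protein. Rps27l, a paralog of Rps27 known as a p53 target in human cells, had 259 ± 30.2 CPM per kb in WT control microglia (SD, n = 5) and closed the main range. A gap followed down to Rpl22l1, a paralog of Rpl22, at 68.6 ± 9.27 CPM per kb. Rps27rt, a retrotransposed copy of Rps27, had 37.8 ± 8.43, Rps16 had 35.8 ± 24.6 and Rpl7l1 had 33.2 ± 2.23 CPM per kb, and their libraries overlapped. The sources do not name the program that counted the reads, so whether the reads of Rps16 were counted in full cannot be told from the table, and its level and calls are given with that limit. Rpl39l, a paralog of Rpl39 described in mouse testis, had 3.95 ± 1.36 CPM per kb. Rpl3l, known from skeletal and heart muscle, and Rpl10l, known from testis, were at 0.0101 and 0.00583 CPM per kb, and no fold is given for them. Their partners Rpl3 and Rpl10 had 371 ± 19.8 and 1386 ± 177 CPM per kb (SD, n = 5).

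**Figure D1:**
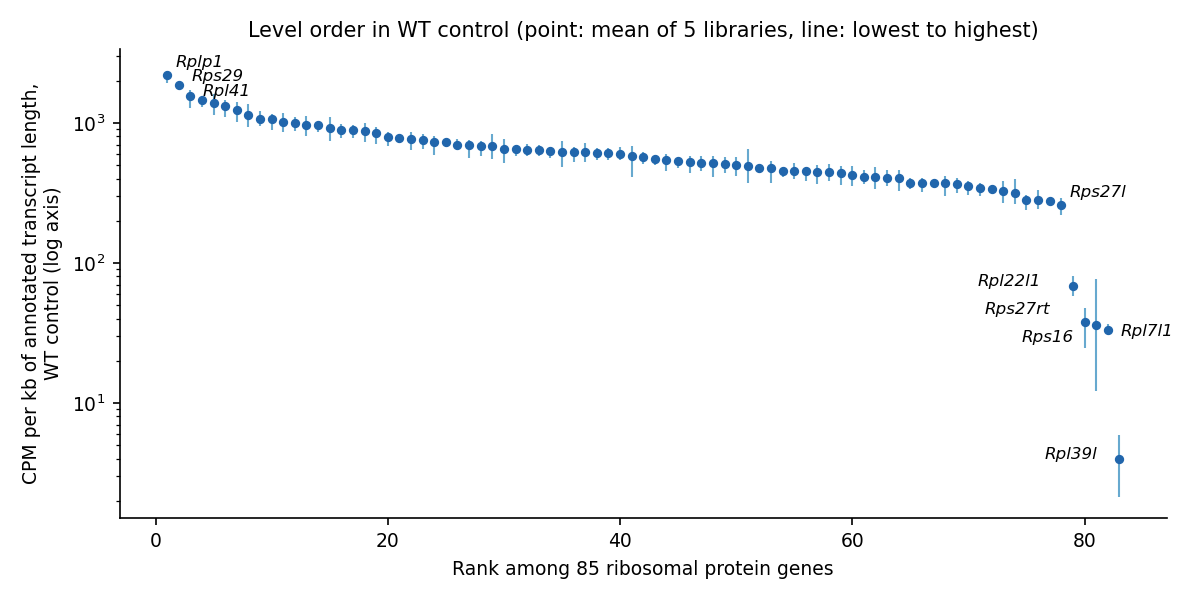
Level of each ribosomal protein gene in WT control microglia by rank, in CPM per kb of annotated transcript length on a log axis, for the 83 tested members. Points are means of 5 libraries and lines run from the lowest to the highest library. Most members form a shallow slope between Rplp1 (2186) and Rps27l (259), with Rpl22l1, Rps27rt, Rps16, Rpl7l1 and Rpl39l below it and a long line for Rps16.

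Reads of near-identical copies limit some of these levels. A copy of at least 95% sequence identity was present in the table for 72 members. Over all members, those without a copy included, the copies held a median of 1.41% of the member's own counts. The copies of Rps27rt held 947% of its own counts, nearly all on Rps27, so its level is uncertain. Copies held 27.1% of the counts of Rpl35 (Gm2000), 23.7% of Rpl41 (Gm10076), 22.8% of Rpl27a (Gm7536) and 10.9% of Rps27, and 5 members in all were above 10%. For Rpl28, Rpl7l1 and Rps16 the copies held 0.854%, 0.125% and 0.640%. Adding the counts of copies to the members changed no count of called members.

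Most counts of members lay on protein-coding transcripts. Transcripts of other classes held between 3.57% and 4.81% of member counts in a library, with a median of 4.199%. The median member had 1.13% there, and 34 members had none. Rps20, a small subunit protein, was the exception, with 51.8% of its counts on transcripts not annotated as protein coding and 48.1% on Rps20-201 alone, a transcript with a retained intron. Rpl12 had 34.7%, mostly on Rpl12-201, annotated for nonsense-mediated decay, and Rpl5, which binds 5S ribosomal RNA, had 28.8%. For Rps20 the share averaged 52.5 ± 2.95% in KO fibril (SD, n = 5), 51.3 ± 3.37% in KO LPS (n = 4), 53.8 ± 3.16% in KO control (n = 6), 51.6 ± 3.28% in WT fibril (n = 4), 50.2 ± 1.18% in WT LPS (n = 6) and 50.9 ± 3.53% in WT control libraries (n = 5), and each pair of groups overlapped.

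Together the 85 members held between 3.12% and 4.96% of the gene counts of a library. Their share averaged 3.53 ± 0.49% in KO fibril (SD, n = 5), 3.79 ± 0.25% in KO LPS (n = 4) and 3.89 ± 0.64% in KO control microglia (n = 6). In WT microglia it averaged 3.52 ± 0.06% with fibrils (n = 4), 3.53 ± 0.30% with LPS (n = 6) and 4.08 ± 0.26% in controls (n = 5). The order of the groups depended on the scaling. Against library sizes scaled by the trimmed mean of M-values (TMM), which sets the typical gene equal between libraries and underlies all CPM values given here, the share averaged 3.45 ± 0.55% in KO fibril, 3.91 ± 0.42% in KO LPS and 3.56 ± 0.65% in KO control microglia. On the same scale it averaged 3.81 ± 0.06% in WT fibril, 3.85 ± 0.17% in WT LPS and 3.86 ± 0.36% in WT control microglia, which puts KO LPS highest where the share of counts had put WT control highest. In bulk samples fewer cells of a type and less RNA per cell cannot be told apart.

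**Figure D2:**
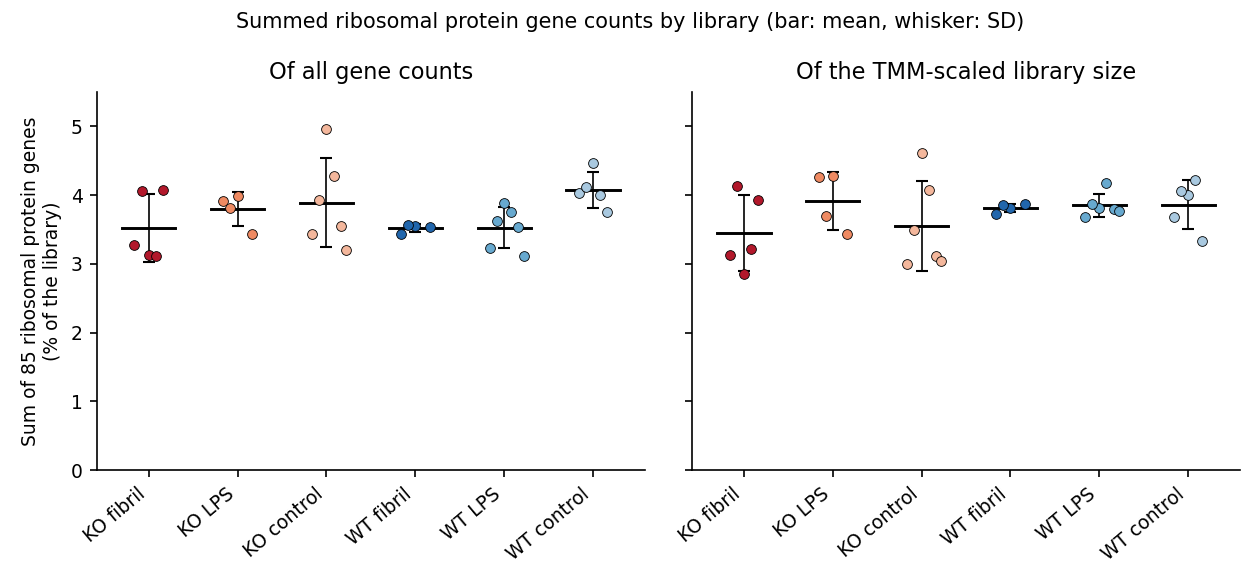
Summed counts of the 85 ribosomal protein genes as a percentage of all gene counts (left) and of the TMM-scaled library size (right), by group. Each point is a library, bars are group means and whiskers SD. The 4 WT fibril libraries sit close together, between 3.73% and 3.86% on the right, while KO control libraries spread from 3.01% to 4.61%.

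The members varied less between libraries of a group than the typical gene, a description that does not allow for their higher level. In WT fibril libraries the median coefficient of variation of the 83 members was 3.75%, against 8.28% over all genes tested. It was 5.90% against 16.1% in WT LPS libraries and 10.96% against 17.9% in WT control libraries. The members were more variable in KO than in WT libraries of the same treatment. Their medians in KO libraries were 17.7% against 23.0% over all genes for fibrils, 11.7% against 15.2% for LPS and 20.6% against 23.1% for controls. Over all genes the KO value was above the WT value for fibrils and controls but not for LPS. Markers of other cells were also uneven, and the summed level of 10 astrocyte markers ranged from 60.3 to 302 CPM in KO fibril, 36.4 to 195 in KO LPS, 44.3 to 245 in KO control, 16.4 to 23.5 in WT fibril, 16.6 to 269 in WT LPS and 23.4 to 205 in WT control libraries, with 0 to 2 of the 10 at 0 in a library. Its part in the spread of the members was not tested.

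Comparisons were made with edgeR's quasi-likelihood test over all genes, with p-values adjusted by the Benjamini-Hochberg method and genes called at an adjusted p under 0.05. With fibrils 1 of 83 members was called against control in KO microglia, where 23.8% of all genes were called (12.2% higher), and 1 in WT microglia, where 29.3% of all genes were called (13.9% higher). In both genotypes that member was Rpl7l1, and it was higher. The count depended on the setting. In WT microglia 9 were called in the fit of only the compared groups, 2 higher and 7 lower. With scaling by library size alone 23 were called in WT and 3 in KO microglia, all lower. That scaling also moved the median of all genes further below 0 in both genotypes. The shares of all genes called under these settings are not given here. In the fit of all 30 libraries the median log2 fold change of the members was -0.04 in KO and -0.03 in WT microglia, against -0.04 and -0.05 for all genes. Without the 7 libraries that stood apart these medians were 0.03 and 0.01, and leaving out KO control 1, KO fibril 1 or, in WT microglia, WT control 6 also put them above 0. The comparisons in each genotype share their control libraries with the LPS comparisons.

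Rpl7l1 (chromosome 17, 46773907 to 46782672, minus strand, mm10) encodes a protein related to Rpl7, and its yeast relative takes part in assembly of the large subunit. Its levels were 112, 108, 139, 115 and 94.3 CPM in the 5 KO fibril libraries, against 71.7 at lowest, 89.3 at median and 107.8 CPM at highest in the 6 KO control libraries. In WT microglia they were 102, 108, 101 and 111 CPM with fibrils, against 88.9, 81.3, 81.5, 86.2 and 95.3 CPM in controls. All 4 WT fibril libraries lay above all WT controls, while in KO microglia the lowest fibril library, replicate 5, lay among the controls. The log2 fold change with fibrils was 0.36 ± 0.08 in KO (SE, edgeR adjusted p = 0.00266) and 0.29 ± 0.09 in WT microglia (edgeR adjusted p = 0.0228). The difference between the genotypes was 0.07 ± 0.13 (edgeR adjusted p = 0.868). The WT call was lost when any of 6 libraries was left out (KO LPS 3, WT control 2, 3 or 5, or WT fibril 2 or 4, adjusted p up to 0.0649), and the KO call never was. With scaling by library size alone the change was 0.26 ± 0.10 in KO (adjusted p = 0.0509) and 0.09 ± 0.11 in WT microglia (adjusted p = 0.537), a scaling under which the median of all genes was -0.13 in KO and -0.25 in WT microglia. The KO call was also lost in the fit of only the compared groups (adjusted p = 0.0801), and the WT call without a filter on low counts (adjusted p = 0.0762). Rpl7 itself had -0.12 ± 0.13 in KO and 0.12 ± 0.15 in WT microglia.

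The other paralogs were not called against control. Rpl22l1, which in zebrafish acts against Rpl22 in blood development, had 22.9, 19.8, 43.2, 24.7 and 16.8 CPM in KO fibril libraries, against 19.3, 30.3 and 66.3 CPM (lowest, median and highest of 6) in KO controls. In WT microglia it had 23.5, 22.2, 23.9 and 27.4 CPM with fibrils, against 44.2, 35.0, 42.1, 36.4 and 31.8 CPM in controls. The WT groups did not overlap and the KO groups did, and the log2 fold changes were -0.46 ± 0.23 in KO (edgeR adjusted p = 0.151) and -0.64 ± 0.25 in WT microglia (edgeR adjusted p = 0.0543). Rpl22 itself had -0.12 ± 0.12 and 0.09 ± 0.14. Of the 83 members 5 had WT fibril and WT control libraries that did not overlap (6.02%), against 29.8% of all genes, and none had so in KO microglia, against 8.09% of all genes.

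LPS called 1 of 83 members against control in KO microglia, where 13.7% of all genes were called (6.34% higher), and 0 in WT microglia, where 15.1% of all genes were called. In WT microglia 1 member passed an unadjusted p under 0.05, and DESeq2 and limma-voom each called 1 member, Rps16. In KO microglia 78 of 83 members had a fold change above 0, with a median of 0.15 against -0.04 for all genes, and in WT microglia the median was -0.01 against -0.02. Small and large subunit members were alike in KO microglia, with medians of 0.12 and 0.15. This shift rested on KO LPS replicates 1 and 2: without both, a choice made after seeing the data, the median was -0.00 and no member was called. With scaling by library size alone it was -0.03, against -0.21 for all genes.

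Rps2 (chromosome 17, 24718116 to 24721929, plus strand, mm10), a small subunit protein near the messenger RNA entry, was the member called with LPS in KO microglia. It had 846, 849, 777 and 816 CPM in KO LPS libraries, against 601 at lowest, 676 at median and 753 CPM at highest in the 6 KO controls. All 4 LPS libraries lay above all controls. In WT microglia it had 694, 728 and 813 CPM (lowest, median and highest of 6) with LPS, against 768, 781, 661, 831 and 748 CPM in controls, and these overlapped. The log2 fold change with LPS was 0.29 ± 0.08 in KO (edgeR adjusted p = 0.0179) and -0.03 ± 0.08 in WT microglia (edgeR adjusted p = 0.899), and the difference between these responses was 0.32 ± 0.11 (edgeR adjusted p = 0.992). The KO call was lost without KO LPS replicate 1 or 2 (adjusted p up to 0.0613). It was also lost with scaling by library size alone (0.11 ± 0.09, adjusted p = 0.406), without a filter (adjusted p = 0.0756), with only the compared groups (adjusted p = 0.106) and without the 7 libraries that stood apart (adjusted p = 0.0561). The summed level of 7 markers of dividing cells was 1148 to 1451 CPM in KO LPS and 451 to 1033 CPM in KO control libraries, and its part in this result was not tested.

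Other members that the field uses as landmarks, Rps6, Rplp0, Rpsa and Rplp1, were not called with LPS. Rps6, the substrate of S6 kinases, had 628 ± 63.9 CPM in KO LPS (SD, n = 4) and 543 ± 79.4 CPM in KO control microglia (n = 6), a log2 fold change of 0.21 ± 0.11 (edgeR adjusted p = 0.233). Rplp0, the stalk base that is often a reference gene in quantitative PCR, had 1159 ± 90.8 and 988 ± 144 CPM in the same groups, a change of 0.23 ± 0.10. Rpsa, also known as a laminin receptor, had 0.20 ± 0.13, and Rplp1 had 0.04 ± 0.14. In WT microglia the 4 genes had changes between -0.03 and 0.03.

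Fibrils against LPS called 4 of 83 members in KO microglia, 1 higher and 3 lower, where 26.6% of all genes were called (13.8% higher and 12.8% lower). In WT microglia 3 were called, 2 higher and 1 lower, where 37.1% of all genes were called (18.2% higher and 18.9% lower). Rpl7l1 was higher in both, by 0.34 ± 0.09 in KO (edgeR adjusted p = 0.00890) and 0.28 ± 0.09 in WT microglia (edgeR adjusted p = 0.0163). Its KO LPS libraries had 90.8, 93.3, 89.2 and 86.8 CPM, all below the KO fibril libraries, and its 6 WT LPS libraries had 84.5 at lowest, 86.1 at median and 93.1 CPM at highest, all below the WT fibril libraries. The WT call was lost without WT fibril replicate 4 (adjusted p = 0.0519).

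In KO microglia Rps2, Rpl10 and Rpl13a were lower with fibrils than with LPS. Rps2 had 584, 665, 769, 761 and 647 CPM in KO fibril libraries, all below the KO LPS libraries given for it before, a log2 fold change of -0.26 ± 0.09 (edgeR adjusted p = 0.0241). Rpl10, a late-joining large subunit protein, had 757, 843, 929, 1069 and 853 CPM with fibrils, against 1256, 1224, 991 and 1084 CPM with LPS, a change of -0.36 ± 0.12 (edgeR adjusted p = 0.0289). Rpl13a had 206, 211, 301, 296 and 295 CPM with fibrils, against 387, 359, 346 and 301 CPM with LPS, a change of -0.41 ± 0.14 (edgeR adjusted p = 0.0258). Rpl10 and, narrowly, Rpl13a overlapped between these groups. Each of these 3 calls was lost without KO LPS replicate 1 or 2 and without KO fibril replicate 1. Leaving out KO fibril replicate 5 ended those of Rps2 and Rpl10, replicate 2 those of Rpl10 and Rpl13a, and KO LPS replicate 3 that of Rpl13a. The highest adjusted p was 0.101, for Rpl10. All 3 calls were also lost with only the compared groups and with no filter (adjusted p between 0.0576 and 0.114), and that of Rps2 without the 7 libraries that stood apart (adjusted p = 0.0536) and with scaling by library size alone (adjusted p = 0.133). Of the members 77 had a fold change below 0 here, with a median of -0.18 against 0.02 for all genes, and without KO LPS 1 and 2 the median was -0.04. The markers of dividing cells summed to 296 to 691 CPM in KO fibril and 1148 to 1451 CPM in KO LPS libraries, and their part was not tested.

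In WT microglia the second member higher with fibrils than with LPS was Rpl39l, at 4.63, 4.30, 4.80 and 3.86 CPM with fibrils, against 1.87 at lowest, 2.47 at median and 3.74 CPM at highest in the 6 LPS libraries. The groups did not overlap, and the log2 fold change was 0.70 ± 0.28 (edgeR adjusted p = 0.0485). This call at a low level was lost in 19 of the 30 fits that left out 1 library (adjusted p up to 0.103), with RLE scaling, without a filter and with protein-coding genes only (adjusted p between 0.0537 and 0.0894). Its change in KO microglia was 0.34 ± 0.29 (edgeR adjusted p = 0.440), and Rpl39 had -0.01 ± 0.15 in WT microglia. In WT microglia 13 members did not overlap between fibrils and LPS, 5 above and 8 below, which is 15.7% against 35.4% of all genes. Here 8 of 9 fibroblast, 6 of 9 tested astrocyte and 6 of 7 dividing-cell markers were lower with fibrils than with LPS. So were 3 of 11 oligodendrocyte-lineage and 2 of 4 tested neuron markers, and none of these lists had a marker called higher. The part of these markers in the WT calls was not tested.

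**Figure D3:**
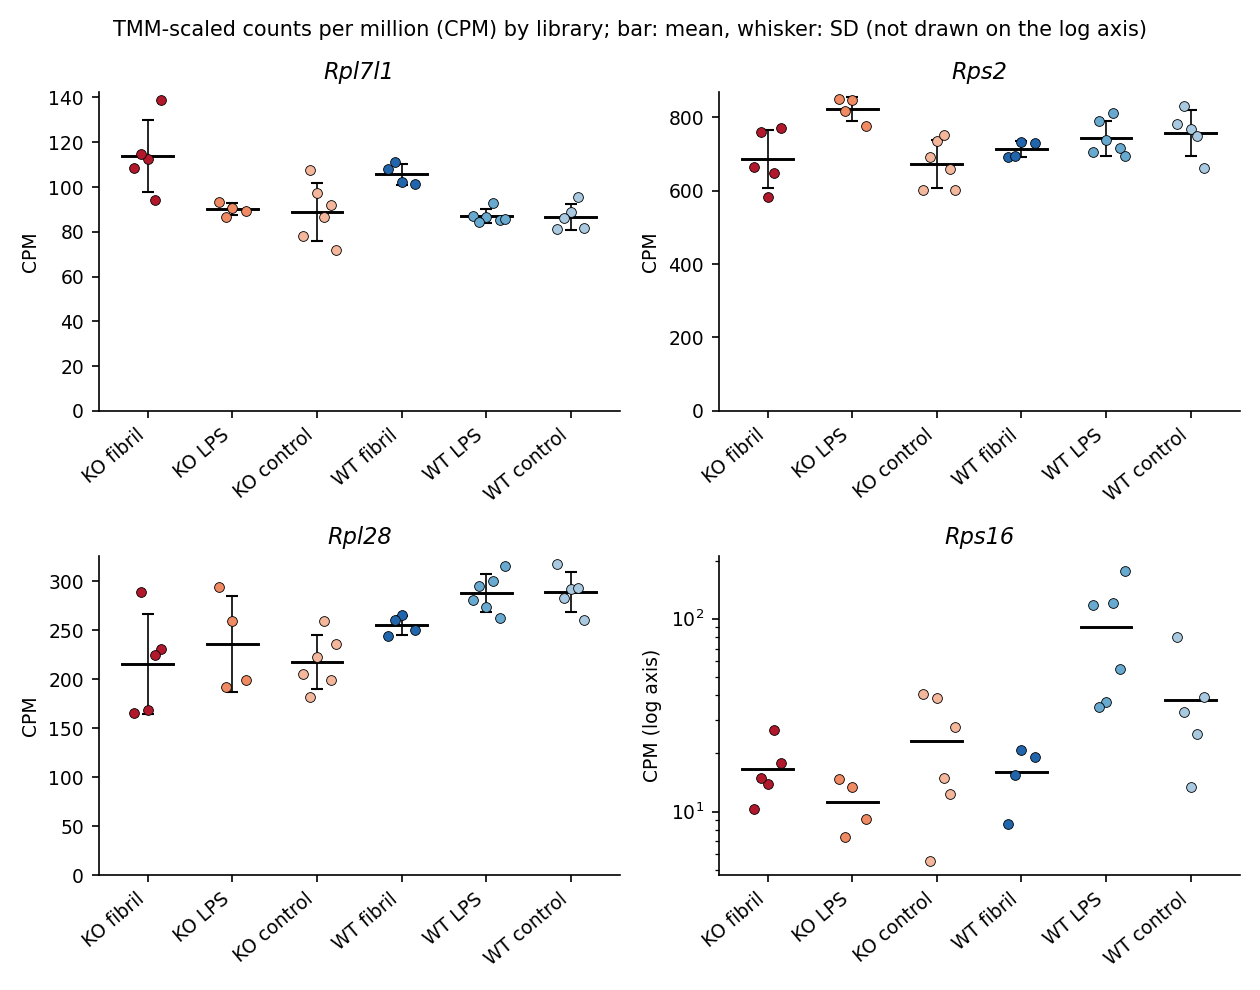
TMM-scaled CPM of Rpl7l1, Rps2, Rpl28 and Rps16 in each library by group, with group means as bars and SD as whiskers, except for Rps16, which is on a log axis without whiskers. The WT fibril libraries of Rpl7l1 (101 to 111) lie above the WT LPS and WT control libraries, the KO LPS libraries of Rps2 (777 to 849) above the KO controls, and the WT LPS libraries of Rps16 spread from 34.9 to 177.

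KO was set against WT microglia within each treatment. In controls 0 of 83 members were called, where 0.314% of all genes were called; 13 were lower at an unadjusted p under 0.05, and DESeq2 called 1, Rpl35. With LPS 1 was called, Rps16, which was lower, where 1.69% of all genes were called (1.24% lower). With fibrils 0 were called, where 8.85% of all genes were called; 9 were lower at an unadjusted p under 0.05, and DESeq2 called 0. The median log2 fold change of the members was -0.13 in controls, 0.03 with LPS and -0.13 with fibrils, against 0.01, 0.02 and 0.01 for all genes. In controls and with fibrils 74 of 83 were below 0. The direction with fibrils turned with scaling by library size alone, to 0.01, while that in controls was -0.08, against 0.06 for all genes. The direction with LPS turned without KO LPS replicate 1 or 2, to -0.01 and -0.00, and without both, to -0.10. With fibrils 7 of 9 markers of fibroblasts and leptomeninges and 5 of 9 tested astrocyte markers were higher in KO microglia, and the fibroblast markers summed to 29.1 to 108 CPM in KO fibril libraries, against 14.0 to 15.6 CPM in WT fibril libraries, with 1 to 3 of the 9 at 0 in the WT libraries and none in the KO libraries. Their part in the shift was not tested. The 2 members with the smallest p with fibrils were Rpl23 at -0.38 ± 0.13 (edgeR adjusted p = 0.0691) and Rps7, a member known to bind Mdm2, at -0.43 ± 0.16 (edgeR adjusted p = 0.0856).

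Averaged over the treatments, 8 of 83 members were called, all lower in KO microglia (9.64%), where 11.1% of all genes were called and 4.15% were lower. The median of the members was -0.07, against 0.00 for all genes, and it was 0.02 with scaling by library size alone, under which 2 members were called. Without KO LPS 1 and 2 the count was 15. The fit without 1 library called between 3 and 13 members. In the same comparison 8 of 11 oligodendrocyte-lineage and 4 of 4 tested neuron markers were higher in KO microglia. So were 5 of 9 tested astrocyte and 3 of 9 fibroblast markers, and none of these lists had a marker called lower. Of 12 microglial markers 2 were lower, as were 1 of 3 tested endothelial and pericyte and 2 of 5 tested border macrophage markers. The part of these markers in the lower member levels was not tested.

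Rpl28 (chromosome 7, 4792874 to 4795066, plus strand, mm10), a large subunit protein of eukaryotic ribosomes, had the smallest p in this comparison. In KO microglia it had 169, 165, 230, 289 and 225 CPM with fibrils and 259, 294, 199 and 192 CPM with LPS, and in the 6 controls 182 at lowest, 214 at median and 259 CPM at highest. In WT microglia it had 266, 244, 250.2 and 260.1 CPM with fibrils, 263, 288 and 315 CPM (lowest, median and highest of 6) with LPS, and 292, 318, 260.5, 283 and 293 CPM in controls. All KO controls lay below all WT controls, but narrowly (259 CPM at highest against 260.5 CPM at lowest). Rpl28 was the only member with groups that did not overlap there (1.205%, against 0.725% of all genes), while its LPS and fibril groups overlapped. The mean log2 fold change was -0.31 ± 0.07 (edgeR adjusted p = 0.00890). Within treatments it was -0.24 ± 0.13 with fibrils, -0.29 ± 0.13 with LPS and -0.41 ± 0.12 in controls (edgeR adjusted p = 0.275, 0.252 and 0.249).

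Rpl35 (chromosome 2, 39001580 to 39005624, minus strand, mm10), which lies at the exit of the peptide tunnel, was lower by a mean log2 fold change of -0.25 ± 0.06 (edgeR adjusted p = 0.0120). It had 226, 251, 295, 345 and 271 CPM in KO fibril and 310.5, 304, 240 and 245 CPM in KO LPS libraries, and 203, 250 and 284 CPM (lowest, median and highest of 6) in KO controls. In WT microglia it had 298, 315, 311 and 285 CPM with fibrils, 307, 318 and 336 CPM (lowest, median and highest of 6) with LPS, and 347, 304, 283, 336 and 351 CPM in controls. KO and WT overlapped narrowly in controls and with LPS and widely with fibrils. Its change was -0.39 ± 0.10 in controls, -0.22 ± 0.11 with LPS and -0.12 ± 0.11 with fibrils (edgeR adjusted p = 0.115, 0.284 and 0.537). Without any library the mean call held (adjusted p up to 0.0429), and with scaling by library size alone it was -0.15 ± 0.05 (adjusted p = 0.05003). For Rpl28 the adjusted p stayed at or under 0.0286 with any library left out.

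Others called in the mean were closer to the threshold. Rplp2, the second acidic stalk protein, had -0.18 ± 0.06 (edgeR adjusted p = 0.0380) and Rpl11 had -0.27 ± 0.09 (edgeR adjusted p = 0.0432). The calls of Rplp2 and Rpl11 were lost in 14 and 19 of the 30 fits that left out 1 library. Both were lost with scaling by library size alone, without a filter and with RLE scaling, and that of Rplp2 also without the 7 libraries that stood apart (adjusted p between 0.0552 and 0.263). Rpl17 had -0.23 ± 0.07 (edgeR adjusted p = 0.0449) and is named after its values were seen. Rps15 was not called in any comparison and is named for its human relative: it had 272 ± 47.0 CPM in KO fibril (SD, n = 5), 294 ± 50.01 in KO LPS (n = 4), 293 ± 50.4 in KO control (n = 6), 286 ± 17.0 in WT fibril (n = 4), 348 ± 27.1 in WT LPS (n = 6) and 348 ± 39.9 CPM in WT control microglia (n = 5). Its mean log2 fold change was -0.19 ± 0.07 (edgeR adjusted p = 0.0840).

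Rps16 (chromosome 7, 28350652 to 28353155, plus strand, mm10), a core small subunit protein, was called in 3 comparisons. It had 13.8, 10.3, 17.9, 15.0 and 26.5 CPM in KO fibril and 13.4, 14.7, 9.12 and 7.38 CPM in KO LPS libraries, and 5.57, 21.1 and 40.8 CPM (lowest, median and highest of 6) in KO controls. In WT microglia it had 20.8, 8.63, 19.3 and 15.4 CPM with fibrils, 34.9, 86.6 and 177 CPM (lowest, median and highest of 6) with LPS, and 13.4, 79.9, 39.1, 32.8 and 25.3 CPM in controls. All WT LPS libraries lay above all KO LPS and all WT fibril libraries, and the WT LPS group spanned a wide range by itself. Its log2 fold change was -3.03 ± 0.57 for KO against WT with LPS (edgeR adjusted p = 0.00616), -1.22 ± 0.29 for the mean (edgeR adjusted p = 0.00958) and -2.50 ± 0.55 for fibrils against LPS in WT microglia (edgeR adjusted p = 9.34e-04). With LPS against control it was -1.07 ± 0.52 in KO (edgeR adjusted p = 0.200) and 1.25 ± 0.47 in WT microglia (edgeR adjusted p = 0.0798), and the difference of these responses was -2.32 ± 0.71 (edgeR adjusted p = 0.992). The call with LPS for KO against WT was lost without KO LPS replicate 4 (adjusted p = 0.0553) and without KO LPS replicates 1 and 2 together (adjusted p = 0.0518).

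The share of mitochondrial genome transcripts moved with Rps16 in the WT groups and largely in KO LPS libraries, but not in KO fibril libraries and only in part in KO controls. WT LPS replicates 2, 5 and 6, its highest libraries at 118, 121 and 177 CPM, also had the highest shares of mitochondrial genome transcripts in their group, 4.82%, 5.29% and 5.58% of gene counts, against 3.77% to 4.13% in the rest. WT control replicate 2, the highest of its group for Rps16, had the highest share there, 4.504%. WT fibril replicates 1, 3, 4 and 2, from the highest Rps16 level (20.8 CPM) to the lowest (8.63 CPM), had shares of 2.72%, 2.67%, 2.30% and 2.27%. KO LPS libraries had 2.47% to 3.04%. Replicates 1 and 2 of that group, with 13.4 and 14.7 CPM, had 3.04% and 3.00%, and replicates 3 and 4, with 9.12 and 7.38 CPM, had 2.81% and 2.47%. In contrast, KO fibril replicate 5 had the highest Rps16 level of its group, 26.5 CPM, at the lowest share there, 2.37%, and KO control replicate 6 had 27.3 CPM at the lowest share of the KO controls, 2.21%. KO control replicate 2 had the highest level of its group, 40.8 CPM, at 3.84%, while KO control replicate 1 had the highest share, 7.12%, at 38.6 CPM. The part of this share in the result was not tested. Rps16 had 2.39% of its counts on retained-intron transcripts and the rest on its coding transcript.

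No member was called for a difference of response between the genotypes. The LPS response and the fibril response, KO minus WT, each called 0 of 83 members, where 0% of all genes were called. At an unadjusted p under 0.05 there were 2 members for LPS, Rps16 and Rps2, and 0 for fibrils, and DESeq2 called 0 for either. For LPS the difference of responses was above 0 for 78 of the members, with a median of 0.15 against -0.00 for all genes, and without KO LPS 1 and 2 the median was 0.01. For fibrils the median was -0.01 against 0.02 for all genes. For fibrils the smallest p belonged to Rps3a1 at -0.28 ± 0.15 (edgeR adjusted p = 0.474) and Rpl35.

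Genes of the same machinery were read from the same fits. Fau and Rack1, ribosomal proteins with other symbols, were called in 0 comparisons. Among 16 translation factors and companions whose messenger RNAs carry TOP tracts, fibrils against control called 1 higher and 1 lower in KO and 0 higher and 1 lower in WT microglia. These are 6.25% lower in each genotype, where 11.6% of all genes in KO and 15.5% in WT microglia were lower. Eif3f, a subunit of initiation factor eIF3, was the lower gene in both, by -0.23 ± 0.07 in KO (edgeR adjusted p = 0.0213) and -0.35 ± 0.08 in WT microglia (edgeR adjusted p = 0.00197). It was also lower in KO than in WT microglia in the mean, by -0.21 ± 0.04 (edgeR adjusted p = 0.00288), with Eif3a and Eef2. Eef1a1, the main elongation factor, was higher with LPS in KO microglia by 0.29 ± 0.09 (edgeR adjusted p = 0.0354), 6.25% of the list, where 6.34% of all genes were higher. The KO calls of Eif3f with fibrils and of Eef1a1 with LPS were lost with only the compared groups and with no filter, and that of Eef1a1 also with scaling by library size alone and without KO control 2, 3 or 6 or KO LPS 1 or 2.

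Ribosome biogenesis factors, which cut, modify and fold ribosomal RNA and load the proteins, had many members higher with fibrils. Of 56 tested, 46 were higher and 1 lower with fibrils against control in KO microglia, with a median log2 fold change of 0.46, and 28 were higher and 0 lower in WT microglia, with a median of 0.32. Over all genes the same comparisons called 12.2% and 13.9% higher. Rrn3, which brings RNA polymerase I to ribosomal DNA, rose by 0.56 ± 0.07 in KO and 0.57 ± 0.08 in WT microglia (edgeR adjusted p = 3.39e-06 and 1.51e-05). Pno1, an assembly factor of the small subunit, rose by 0.54 ± 0.07 and 0.53 ± 0.08, and Bop1, of the large subunit, by 0.73 ± 0.11 and 0.59 ± 0.12. With scaling by library size alone the counts were 29 higher and 1 lower in KO microglia, and 5 higher and 3 lower in WT microglia. In the fit of only the compared groups 26 were higher and 0 lower in KO, and 33 higher and 0 lower in WT microglia. Markers of dividing cells moved the other way with fibrils, with 3 of 7 lower in KO and 6 of 7 lower in WT microglia; they summed to 296 to 691 CPM in KO fibril, against 451 to 1033 CPM in KO control libraries, and to 617 to 653 CPM in WT fibril, against 765 to 1039 CPM in WT control libraries, and none of the 7 was at 0 in any library. In WT microglia 7 of 9 fibroblast and 6 of 9 tested astrocyte markers were also lower with fibrils, and the fibroblast markers summed to 14.0 to 15.6 CPM in WT fibril, against 24.3 to 158 CPM in WT control libraries. The part of these markers in the result was not tested. With LPS 4 biogenesis factors were higher and 2 lower in KO and 6 higher and 1 lower in WT microglia, among them Rrs1 at 1.13 ± 0.20 and 1.25 ± 0.19, a split that turned with scaling by library size alone (1 higher and 6 lower in each genotype). The main counts with LPS were near the background, where 6.34% of all genes were higher in KO and 7.10% in WT microglia. In KO microglia 2 were higher without KO LPS replicate 1 or 2, 11 without KO control replicate 4, and 12 without the 7 libraries that stood apart, and in WT microglia 3 were higher without WT control replicate 1. The difference of the fibril response between genotypes called 0 of them.

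Mitochondrial ribosomal proteins, which serve the separate ribosome of that organelle, were called higher with fibrils against control about as often as all genes. Of 78 tested, 13 were higher (16.7%, against 12.2% of all genes) and 2 lower (2.56%, against 11.6%) with fibrils against control in KO microglia. In WT microglia 11 were higher (14.1%, against 13.9%) and 0 lower, where 15.5% of all genes were lower. With scaling by library size alone the counts were 7 higher and 5 lower in KO, and 2 higher and 7 lower in WT microglia. With only the compared groups 6 were higher and 0 lower in KO microglia. In WT microglia 6 were higher without a filter and without KO LPS replicate 3 or WT fibril replicate 3, 7 without WT control replicate 5 or WT fibril replicate 2, and 17 without the 7 libraries that stood apart. Mrpl52 led both, at 1.09 ± 0.13 in KO and 1.04 ± 0.14 in WT microglia (edgeR adjusted p = 7.00e-07 and 7.61e-06). Fibrils against LPS called 36 of 78 higher (46.2%) and 0 lower in WT microglia, where 18.2% of all genes were higher and 18.9% lower. In KO microglia that comparison called 17 higher (21.8%) and 1 lower, where 13.8% of all genes were higher and 12.8% lower. With 1 library left out, 29 to 37 were higher in WT and 12 to 20 in KO microglia. Most fibroblast, astrocyte and dividing-cell markers were lower with fibrils in that WT comparison, and their part was not tested. Among 21 tested regulators of ribosomal protein messenger RNAs and growth, 6 were higher and 1 lower with fibrils in KO and 4 higher and 3 lower in WT microglia. These are 28.6% and 19.0% higher, against 12.2% and 13.9% of all genes, and with only the compared groups 3 were higher in KO and 5 higher and 5 lower in WT microglia. With LPS 5 were higher and 0 lower in each genotype, led by Myc, a driver of ribosome production, at 2.22 ± 0.29 in KO and 2.35 ± 0.29 in WT microglia (edgeR adjusted p = 1.83e-06 and 4.94e-07). These 5 are 23.8% of the list, against 6.34% of all genes in KO and 7.10% in WT microglia, and with scaling by library size alone 3 were higher and 6 lower in KO, and 4 higher and 3 lower in WT microglia. Among 11 tested snoRNA host genes, several of which share TOP starts with the members, fibrils against control called 1 higher and 0 lower in KO and 1 higher and 1 lower in WT microglia, with Eif4a1 the higher gene in both, which is 9.09% higher in each genotype and near the shares of all genes.

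**Figure D4:**
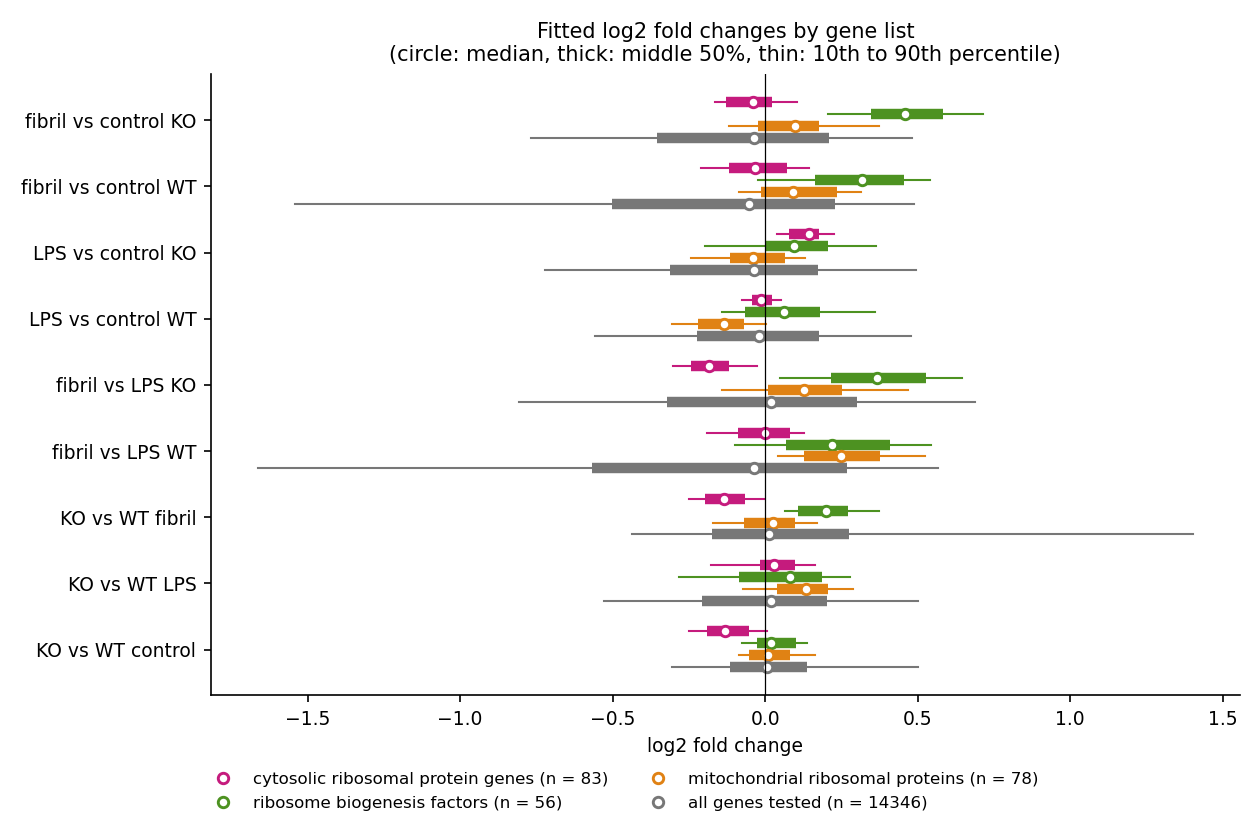
Fitted log2 fold changes of the 83 cytosolic ribosomal protein genes, 56 ribosome biogenesis factors, 78 mitochondrial ribosomal protein genes and all 14346 genes tested, by comparison. Circles are medians, thick lines the middle 50% and thin lines the 10th to 90th percentiles. The thin lines of the cytosolic ribosomal protein genes are shorter than those of all genes in each comparison drawn, and they lie wholly above 0 for LPS against control in KO microglia (0.04 to 0.23) and wholly below 0 for fibrils against LPS in KO microglia (-0.30 to -0.03), while biogenesis factors have medians of 0.46 and 0.32 with fibrils against control in KO and WT microglia.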

How the data were processed

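The deposited table holds raw counts per Ensembl transcript for 30 libraries, as whole numbers that the authors did not normalize, per the file headers and values. The submitters' processing notes name CASAVA 1.7.1, STAR 2.4.2a and build mm10. For some WT controls title and description give different replicate numbers, and the title's numbers were used throughout. The read counter was not given in the sources used here. Here counts were summed per gene with GENCODE M21, which matched 91320 of 94647 transcripts; the 3327 others (0.779% to 0.891% of a library) were left out. Gene totals were 8936310 to 35677005 per library (median 20432234).

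Genes were filtered by edgeR's filterByExpr, TMM-scaled (factors 0.827 to 1.14) and fitted with a mean per group (edgeR 4.0.16, R 4.3.3), leaving 24 residual degrees of freedom. Contrasts were taken from this fit, adjusted over all 14346 genes, and the procedure was tested on simulated data. Alternatives were RLE scaling, library size only, no filter, protein-coding genes only, limma-voom (limma 3.58.1), DESeq2 1.42.0, only the compared groups, replicate number as a block, and each library left out. Chosen after seeing the data were leaving out KO LPS 1 and 2, leaving out 7 libraries that stand apart, and adding near-identical copies. Values of some genes, members among them, are not reported here. The members and lists were chosen with earlier results of these data known.

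Members are named where called (at most 6 per direction and comparison, by p), where they have the 2 smallest p with none called, as paralogs with their partners, as the 5 highest or lowest per length, or as landmarks (Rps6, Rpsa, Rplp0, Rplp1, Rplp2, Rpl13a, Rps2).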

Additional observations from a re-analysis of the deposited data

Results flagged for a closer look

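Of 78 groups of values (4 to 6 libraries each) 3 held a library that lay far from the others for the range of its group, and chance alone marks about 1 group in 20. Rpl11 had 461 CPM in KO control replicate 1, against 230 to 306 CPM in the other KO controls; this library also had the highest share of mitochondrial genome transcripts of all, 7.12%. WT LPS replicate 5 was set apart on 2 counts: its summed share of the members on the TMM scale was 4.18%, against 3.68% to 3.86% in the others of its group, and its Rpl7l1 level was 93.1 CPM, against 84.5 to 87.3 CPM.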

How the results depend on the processing

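The member counts that moved past 1.5 times are these. For KO against WT, DESeq2 called 1 in controls; with LPS, DESeq2 and the fit of only the compared groups called 2 each and the fit without the 7 libraries 3; in the mean, RLE scaling called 4, library size 2, no filter 3, and leaving out KO LPS 1 and 2 gave 15. For LPS against control in KO microglia, no filter, only the compared groups and both sets of left-out libraries gave 0 and DESeq2 3; in WT microglia library size called 4, all lower, and limma-voom and DESeq2 1. For fibrils against control in KO microglia library size called 3 and only the compared groups 0; in WT microglia RLE scaling, protein-coding genes and limma-voom called 2, no filter 0, DESeq2 and leaving out the 7 libraries 4, only the compared groups 9, and library size 23, all lower. For fibrils against LPS in KO microglia no filter, only the compared groups and leaving out KO LPS 1 and 2 gave 1 and DESeq2 7; in WT microglia DESeq2 and leaving out the 7 libraries gave 6 and only the compared groups 20. The share in WT fibril libraries was 3.38% on protein-coding transcripts and 3.61% without genes of the mitochondrial genome, against 3.52%. No direction of a called member reversed. With each library left out, counts ranged for KO against WT over 0 to 0 in controls, 0 to 3 with LPS, 0 to 4 with fibrils and 3 to 13 in the mean, for LPS 0 to 4 in KO and 0 to 1 in WT, for fibrils 1 to 3 in KO and 0 to 2 in WT, for fibrils against LPS 1 to 13 in KO and 1 to 5 in WT, and 0 to 0 for both differences of responses. With replicate number as a block, 1 member was called with fibrils for KO against WT (Rpl23, edgeR adjusted p = 0.0335) and 3 with LPS in KO microglia, and Rpl7l1 with fibrils in WT had an adjusted p of 0.0719; same-numbered libraries correlated by a median of 0.0531, and 12 of 30 matched their own number best, so the numbers are not treated as pairs; they are those of the titles, which differ from the descriptions for some WT controls. The causes of these changes were not tested, and the shares of all genes called under these settings are not given. At this depth members such as Rpl39l and Rps27rt have few counts, which limits their precision.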
